A study of Aspergillus niger with 9 samples.

Results

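The genes described here are the 7 genes of Aspergillus niger, of 11187 in the deposited table, whose protein family annotation holds a G protein alpha subunit domain (PF00503, 3 genes) or an RGS domain (PF00615, 4 genes). They were chosen by annotation, with earlier results of these data known. The 3 alpha subunit genes are ATCC64974_101650, closest in SwissProt to fadA of Aspergillus nidulans (listed there as Emericella nidulans), ATCC64974_55930, closest to gna-2 of Neurospora crassa, and ATCC64974_101870, closest to gna-3 of Neurospora crassa. Among the RGS domain genes, ATCC64974_61450 is closest to flbA of Aspergillus nidulans, while ATCC64974_106060 and ATCC64974_16830 are closest to snx12 and rax1 of fission yeast. ATCC64974_106950 has no SwissProt match. A symbol is used below as the name of the closest protein, which is not proof of the same function. RNA came from vegetative mycelium of shaken liquid cultures of 3 strains: the reference strain MA234.1, and the knockout strains ΔaslA and ΔaslB made in MA234.1, with 3 biological replicates of each. The labels give no genotype for MA234.1, which all 9 libraries share as background, and do not say whether a knockout is 1 clone. The growth protocol names a 16 h culture with 25 mM glucose, yeast extract and casamino acids and a 4 h culture with 25 mM xylose, without saying which culture a library came from.

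Heterotrimeric G proteins carry signals from 7-transmembrane receptors into the cell. An activated receptor makes the alpha subunit exchange GDP for GTP and part from the beta-gamma dimer, and both then act on effectors such as adenylate cyclase, kinases and phospholipases. The alpha subunit switches itself off by hydrolysing GTP, and RGS proteins speed up that step. In Aspergillus nidulans, active FadA keeps the fungus in vegetative growth and holds back conidiation, and FlbA is the RGS protein that turns FadA off. The series title is about FlbA and transcription factors regulated downstream of it, and the comparisons of the aslA and aslB knockouts bear on whether transcripts of the upstream switch itself differ when such a factor is missing.

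Library totals ran from 11321882 to 19110786 counts. Levels are given as CPM, a gene's count scaled to the TMM-adjusted total of its library. The libraries labelled ΔaslB lay far apart. Across the 9568 genes tested, the library labelled ΔaslB replicate 2 correlated at r = 0.970 to 0.978 with MA234.1, and replicates 1 and 3 at 0.922 to 0.984 with ΔaslA (correlations of log2 CPM across genes, which are not independent replicates). Results that rest on ΔaslB are therefore given with and without replicate 2. That library was singled out by its likeness to MA234.1. Leaving it out therefore tends to widen the difference from MA234.1 and to narrow the spread. The p-values of fits without it do not allow for this choice. No symbol in the table is aslA or aslB, and the deleted genes were not analysed here. Beside the label vegetative mycelium, 21 genes closest to markers of conidiation were summed (among them brlA, abaA, wetA and the pigment genes wA and yA). The sums were 168 to 178 CPM in MA234.1, 101 to 112 CPM in ΔaslA and 88.7 to 156 CPM in ΔaslB. In every library 5 of these genes stood under 1 CPM. The series has no conidiating sample to compare with, so these levels cannot test the label. The 4 called markers with the largest change were genes closest to wA, abaA, con-10 and rodA. The wA match ATCC64974_82540 stood at 5.07 to 6.91 CPM in MA234.1 and 0.155 to 0.665 CPM in ΔaslA. Several listed genes share wA as their closest match, and ATCC64974_82540 has no annotated thioesterase domain, unlike some of the others. The regulator abaA (ATCC64974_20070) stood at 0.825 to 2.01 and 16.9 to 21.7 CPM in these strains. The values were 6.04 to 11.4 and 2.25 to 3.92 CPM for con-10 (ATCC64974_33710), and 10.8 to 14.6 and 3.27 to 5.28 CPM for rodA (ATCC64974_45620). The con-10 call was lost without MA234.1 replicate 1 or 3 or ΔaslA replicate 3 (edgeR adjusted p up to 0.0624). Second matches of con-10 (ATCC64974_14830) and rodA (ATCC64974_85500) were not called in ΔaslA (edgeR adjusted p = 0.327 and 0.913). The wA match ATCC64974_8540, which has an annotated thioesterase domain, fell from 44.1 ± 6.09 to 17.8 ± 4.15 CPM (edgeR adjusted p = 0.0311). These genes and both matches of the defining regulator brlA are added here after their values were seen. ATCC64974_15030, which has annotated zinc finger domains, stood at 0.622 to 1.76 CPM over the 9 libraries and was not called in ΔaslA (edgeR adjusted p = 0.355). ATCC64974_72370, which has no annotated domain, stood at 36.9 to 41 CPM in MA234.1 and 11.7 to 18.7 CPM in ΔaslA. Of the 14 measured markers, 6 were called lower and 1 higher in ΔaslA, where edgeR called 24.9% of all genes lower and 23.5% higher. The part of this difference in the results below was not tested, and in bulk RNA fewer cells of a type and less RNA per cell cannot be told apart.

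All 7 genes were expressed in every library and passed the filter on low counts. To compare genes, CPM was divided by the length of the gene's span, which includes introns. In MA234.1 fadA was the most abundant of the 7, at 152 ± 6.26 CPM per kb (SD, n = 3), and flbA the least, at 9.24 ± 0.896 CPM per kb. Between them stood ATCC64974_106950 at 71 ± 6.22 CPM per kb, gna-2 at 39.3 ± 1.23, gna-3 at 38.5 ± 0.660, rax1 at 24.6 ± 2.10 and snx12 at 12.5 ± 0.661. The libraries of gna-2 and gna-3 overlapped in MA234.1, and those of the other neighbours in this order did not.

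In ΔaslA the order per kb ran fadA, ATCC64974_106950, gna-3, rax1, gna-2, snx12 and flbA, with gna-2 now behind gna-3 and rax1. There gna-3 (34.6 ± 1.27 CPM per kb) overlapped with rax1 (32.3 ± 4.90), and gna-2 (21 ± 2.66) with snx12 (20.4 ± 0.393). In ΔaslB, gna-3 (32.6 ± 11.3 CPM per kb) overlapped with both rax1 (32.9 ± 6.79) and gna-2 (23.5 ± 5.65). The authors' deposited table gives 1 FPKM value per strain, and in it fadA, at 213 FPKM in MA234.1, stood above 91.4% of all genes, whereas flbA, at 13.8 FPKM, stood above 47%. In that table the flbA level was 15.9 FPKM in ΔaslA and 15.3 FPKM in ΔaslB, and that of fadA 145 and 171 FPKM. The regulator thus had the lowest level and its textbook target the highest of the group in each strain, on both scales.

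**Figure D1:**
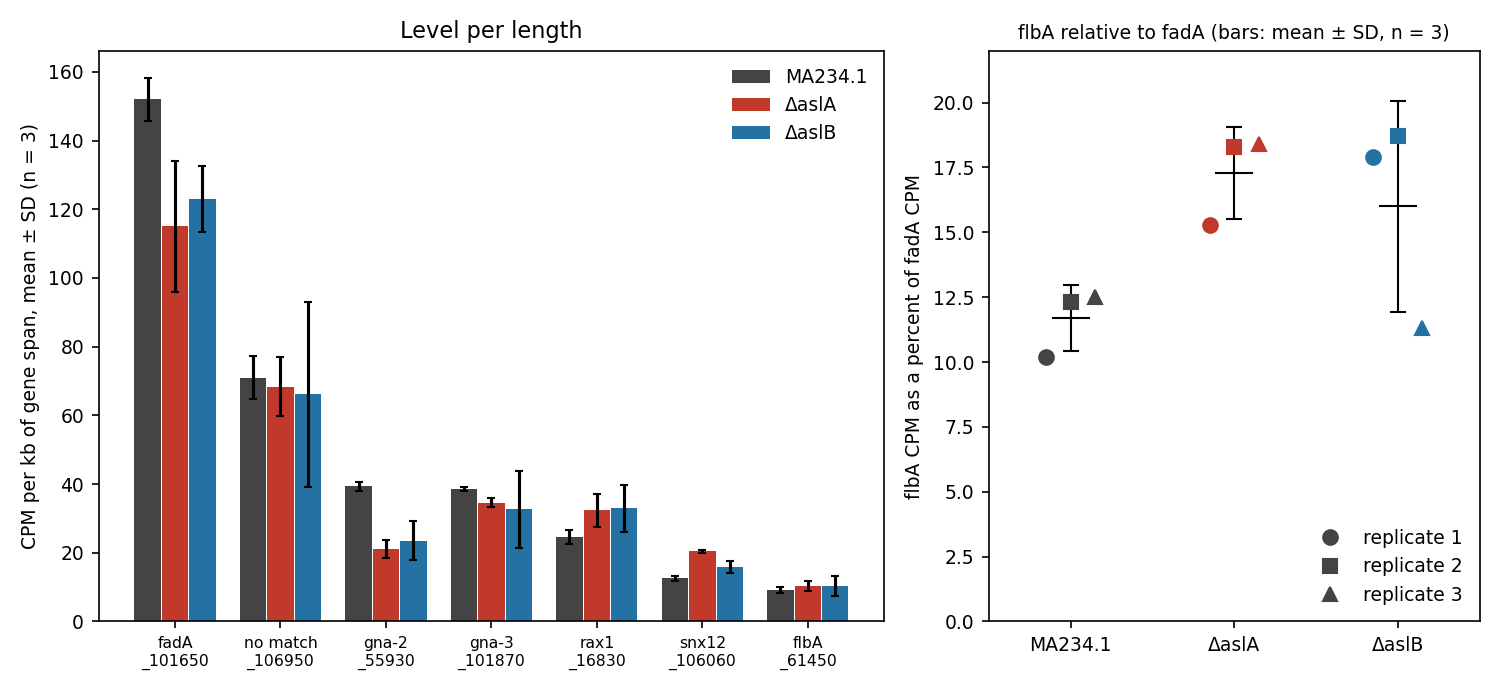
Left, level of each gene in CPM per kb of gene span, as bars of the mean with SD for the 3 libraries of each strain, ordered by MA234.1; fadA is highest and flbA lowest in each strain, and gna-2 falls from 39.3 in MA234.1 to 21 in ΔaslA. Right, flbA CPM as a percent of fadA CPM in each library, with mean and SD; the ΔaslA libraries (15.3 to 18.4%) lie above those of MA234.1 (10.2 to 12.5%), and the ΔaslB libraries spread from 11.3 to 18.7%.

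Among the alpha subunits, gna-2 fell in ΔaslA. Its gene lies on contig 7 of the files' assembly (4189498 to 4190863, plus strand; the genome build is not given in the sources used here). It stood at 55.7, 53 and 52.6 CPM in MA234.1 replicates 1 to 3 and at 32, 24.8 and 29.2 CPM in those of ΔaslA. The strains did not overlap: every ΔaslA library was below every MA234.1 library. The fall was 1.87-fold (adjusted p = 0.0116 for an edgeR log2 change of -0.91 with an SE of 0.22) and was called in all 18 alternatives, with adjusted p from 0.000333 to 0.0430. In the libraries labelled ΔaslB gna-2 stood at 29.1, 40.9 and 26.4 CPM, all below MA234.1, with replicate 2 between the other strains. In Neurospora crassa GNA-2 is one of the alpha subunits that act beside a main growth-regulating subunit.

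The fadA gene (contig 17, 1857491 to 1858744, plus strand) stood at 194, 195 and 181 CPM in MA234.1 and at 162, 117 and 153 CPM in ΔaslA. All 3 ΔaslA libraries were below all of MA234.1, with replicate 2 of ΔaslA the lowest. The difference did not pass the test with all 9 libraries (edgeR log2 change -0.40 with an SE of 0.18 and a 95% interval of -0.81 to 0.01; adjusted p = 0.0947). It passed without the library labelled ΔaslB replicate 2 (edgeR adjusted p = 0.0340) and with only the 6 libraries compared (0.0227), at -0.40 and -0.41, and in 16 of the 18 alternatives it was not called. Without ΔaslA replicate 2 the log2 change was -0.26. Across genes that library correlated at r = 0.973 and 0.971 with ΔaslA replicates 1 and 3, which correlated at 0.991 with each other. In ΔaslB fadA stood at 144, 167 and 149 CPM, again all below MA234.1.

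The gna-3 gene, on the same contig as fadA (1929783 to 1931186, plus strand), is closest to the alpha-3 subunit of Neurospora crassa. It stood at 54.1, 53 and 54.9 CPM in MA234.1 and at 46.5, 49.9 and 49.2 CPM in ΔaslA. The groups did not overlap, but the difference was small and did not pass the test (edgeR log2 change -0.15 with an SE of 0.25 and a 95% interval of -0.73 to 0.42; adjusted p = 0.631). The libraries labelled ΔaslB spread more widely than either, at 60.2, 48.1 and 28.9 CPM. The fadA and gna-3 genes lie 71038 bases apart.

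Among the RGS genes, flbA (contig 8, 817778 to 820174, plus strand) is closest to the regulator named in the series title. Its level was 19.8, 24 and 22.6 CPM in MA234.1, 24.7, 21.4 and 28.2 CPM in ΔaslA and 25.9, 31.2 and 16.9 CPM in ΔaslB. The 3 strains overlapped, and the lowest and the highest value were both from libraries labelled ΔaslB. The interval of the change in ΔaslA ran from -0.43 to 0.75 on the log2 scale (edgeR adjusted p = 0.629); that interval bounds the change, and a p that misses the threshold does not show that the strains are alike. With 203 to 515 counts per library, flbA was measured on fewer counts than fadA (1799 to 2761).

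As a share of fadA CPM, flbA CPM was 10.2, 12.3 and 12.5% in MA234.1 and 15.3, 18.3 and 18.4% in ΔaslA, a mean of 11.7 ± 1.28% against 17.3 ± 1.77% (SD, n = 3 each). These strains did not overlap in this ratio. In ΔaslB it was 17.9, 18.7 and 11.3%, with replicate 3 inside the range of MA234.1, replicate 1 inside that of ΔaslA and replicate 2 just above it. This ratio was chosen after the values were seen and was not tested; it is a ratio of read counts, not of proteins or of levels per length.

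The snx12 gene (contig 17, 3214085 to 3217901, plus strand) rose in ΔaslA. Its product combines the RGS domain with PX, PXA and nexin C-terminal domains, the arrangement of sorting nexins that bind phosphoinositides on endosomal and related membranes, and 2 transmembrane segments are annotated. It stood at 46.6, 46.2 and 50.7 CPM in MA234.1 and at 78.1, 79.4 and 76.4 CPM in ΔaslA. The groups lay far apart relative to their spread, and the rise was 1.63-fold (adjusted p = 0.0102 for an edgeR log2 change of 0.70 with an SE of 0.16). It was called in all 18 alternatives, with adjusted p from 0.000259 to 0.0448. The ΔaslB libraries stood between the other strains, at 64.8, 52.4 and 64.2 CPM.

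The rax1 gene (contig 3, 1703079 to 1704311, plus strand), whose budding yeast counterpart takes part in bud site selection, stood at 27.5, 30.7 and 32.6 CPM in MA234.1 and at 44.1, 32.9 and 42.5 CPM in ΔaslA. The groups did not overlap, though ΔaslA replicate 2 was close to MA234.1 replicate 3. The difference did not pass the test (edgeR log2 change 0.39 with an SE of 0.22 and a 95% interval of -0.11 to 0.90; adjusted p = 0.169) and was called in 1 of 18 alternatives, the fit with only the 6 libraries compared (0.0495). In ΔaslB it stood at 47.3, 31.2 and 43.2 CPM, with replicate 2 inside the range of MA234.1.

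ATCC64974_106950 (contig 17, 3552432 to 3553536, minus strand), which carries only the RGS domain, stood at 72.1, 77.5 and 85.7 CPM in MA234.1 and at 68.7, 86.4 and 71.7 CPM in ΔaslA. These groups overlapped (adjusted p = 0.888 for an edgeR log2 change of -0.05 with an SE of 0.28). The ΔaslB libraries had both the highest and the lowest value, at 68.5, 105 and 45.9 CPM.

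**Figure D2:**
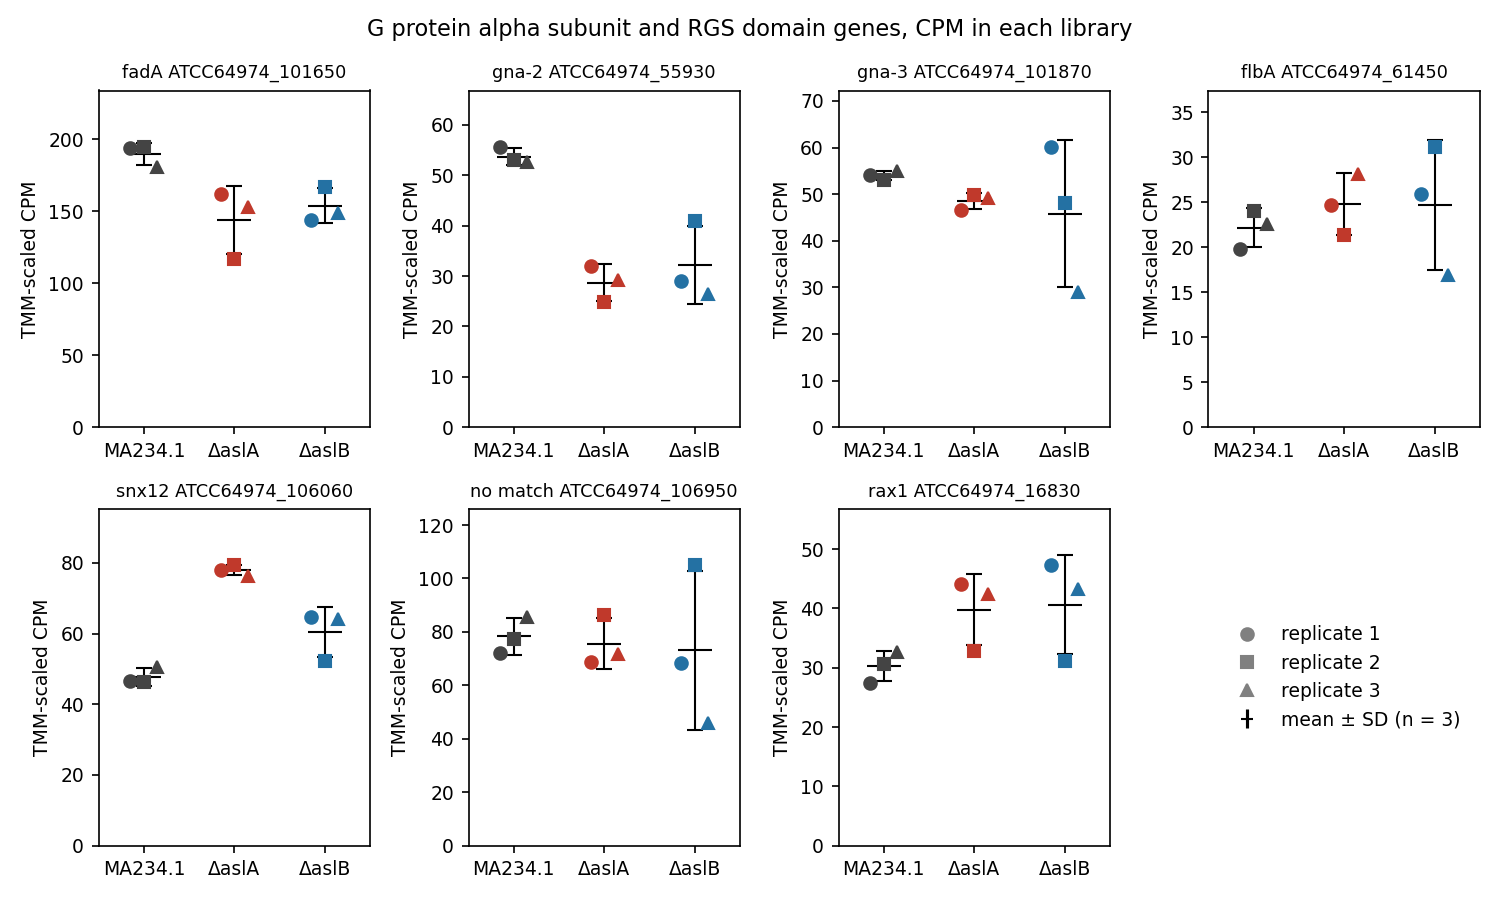
TMM-scaled CPM of the 7 genes in each of the 9 libraries by strain, with replicates as circles, squares and triangles and the mean ± SD (n = 3) as black bars; every axis starts at 0. The ΔaslA libraries of gna-2 (24.8 to 32 CPM) lie below and those of snx12 (76.4 to 79.4 CPM) above all MA234.1 libraries, whereas flbA overlaps between strains.

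Between ΔaslA and MA234.1, edgeR thus called 2 of the 7 genes, gna-2 lower and snx12 higher, where it called 48.5% of all 9568 genes (23.5% higher and 24.9% lower). The libraries of the 2 strains did not overlap for 5 of the 7, against 74.7% of all genes. Without the library labelled ΔaslB replicate 2, fadA joined the calls and 61% of all genes were called; with only the 6 libraries compared, fadA and rax1 joined them and 69.2% of all genes were called. The median absolute log2 fold change of the 7 genes was 0.39, and that over all genes was 0.92. None of the 3 alpha subunits had a positive fold change, and 3 of the 4 RGS genes had one, but only gna-2 and snx12 passed the test, so no direction is given for either group. Over all 9 libraries the highest level of a gene was between 1.67 (fadA) and 2.29 (ATCC64974_106950) times its lowest, where the median over all genes was 3.37. The authors' deposited table, whose own calls require a log2 ratio of 2 or more in size, 10 FPKM or more and a q-value below 0.05, called 0 of the 7 and 13.4% of all genes for this pair. Its own log2 ratio of MA234.1 over ΔaslA was 0.87 for gna-2, with a q-value of 0.0176, and -0.65 for snx12, with a q-value of 0.0540.

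Between ΔaslB and MA234.1, edgeR called 0 of the 7 genes and 0% of all genes. At an unadjusted p under 0.05 it found 1 of the 7, gna-2, and 2926 of all genes, and limma-voom called 0 of all 9568 genes. DESeq2 called gna-2 lower (log2 fold change -0.75, DESeq2 adjusted p = 0.0202) where it called 15.8% of 10994 genes, 4.01% lower. The libraries of the strains did not overlap for 3 of the 7 (fadA, gna-2 and snx12), against 36.8% of all genes. In edgeR gna-2 had a log2 fold change of -0.74 with a 95% interval of -1.24 to -0.24 (SE 0.22, adjusted p = 0.0787). For the other genes edgeR's 95% intervals were -0.72 to 0.10 for fadA, -0.82 to 0.34 for gna-3, -0.44 to 0.75 for flbA, -0.03 to 0.70 for snx12, -0.08 to 0.93 for rax1 and -0.74 to 0.54 for ATCC64974_106950.

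Without the library labelled ΔaslB replicate 2, edgeR called 3 of the 7 genes against MA234.1, where it called 52.7% of 9668 genes (26.4% higher and 26.2% lower). The library was left out because its values lay near MA234.1, and the p-values of that fit do not allow for this choice. In that fit gna-2 was 1.93-fold lower (adjusted p = 0.00150 for an edgeR log2 change of -0.95 with an SE of 0.17), snx12 was 1.35-fold higher (log2 change 0.43, SE 0.13, adjusted p = 0.0183) and rax1 was higher by 0.58 on the log2 scale (SE 0.18, adjusted p = 0.0237). The flbA value moved from 0.15 to -0.05 and stayed uncalled (edgeR adjusted p = 0.877). Measured on the log2 scale, the library labelled ΔaslB replicate 2 stood nearer the MA234.1 mean than the ΔaslA mean for 5 of the 7 genes, the exceptions being gna-3 and flbA. Replicates 1 and 3 stood nearer MA234.1 for 1 gene each, gna-3 in replicate 1 and flbA in replicate 3. Among the 4638 genes called for ΔaslA, replicates 1, 2 and 3 stood nearer MA234.1 for 19.4%, 90.9% and 6.66%. For gna-3, flbA and ATCC64974_106950 the MA234.1 and ΔaslA means lay close together. Some ΔaslB values of these genes lay outside both strains, so nearness says little for them.

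**Figure D3:**
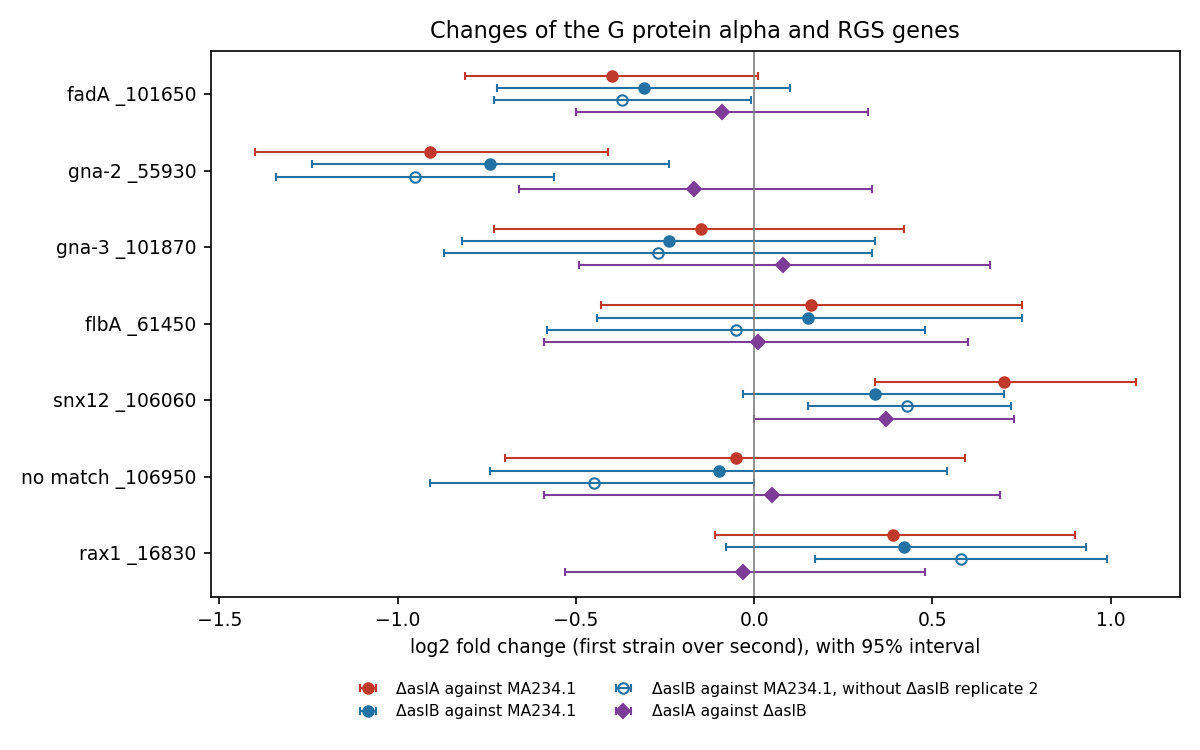
Log2 fold changes of the 7 genes (horizontal axis, first strain over second) with 95% intervals from edgeR, for ΔaslA against MA234.1 (red), ΔaslB against MA234.1 with all libraries (filled blue) and without the library labelled ΔaslB replicate 2 (open blue), and ΔaslA against ΔaslB (violet). The intervals of gna-2 against MA234.1 lie below 0 in all of these, around values of -0.91 in ΔaslA, -0.74 in ΔaslB with all libraries and -0.95 without replicate 2, and those of flbA span 0.

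The direct comparison of ΔaslA with ΔaslB asks whether the effects of the deletions differ. edgeR called 0 of the 7 genes and 0% of all genes, and 1 of the 7 (snx12) and 1633 of all genes had an unadjusted p under 0.05; limma-voom also called 0 of all genes, and DESeq2 called 0 of the 7 and 4.77% of all genes. The interval of the difference was widest for ATCC64974_106950 (-0.59 to 0.69 on the log2 scale) and ran from -0.59 to 0.60 for flbA, from -0.66 to 0.33 for gna-2 and from -0.50 to 0.32 for fadA. For snx12 the difference was 0.37 (SE 0.16, 95% interval 0.00 to 0.73, edgeR adjusted p = 0.293), and every ΔaslA library stood above every ΔaslB library; snx12 was the only one of the 7 whose groups did not overlap here, against 15.7% of all genes. Without the library labelled ΔaslB replicate 2, edgeR called 0 of the 7 and 0.538% of all genes. These comparisons share the ΔaslA, ΔaslB or MA234.1 libraries with those above and are not independent of them.

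Beyond the domains that chose them, the 7 genes share little in the annotation. None has an annotated secretion signal, 2 (snx12 and rax1) have transmembrane segments, and 4 lie on contig 17, the others on contigs 3, 7 and 8. None overlaps a neighbouring gene. Across the 9 libraries, which fall into separate blocks, log2 CPM of gna-2 and fadA had r = 0.91, of gna-2 and snx12 r = -0.90, and of flbA and fadA r = 0.06; these values describe the libraries and share their depth and scaling.

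The genes most like flbA across the 9 libraries, among 6886 with a mean of at least 10 CPM, were dpp1 (ATCC64974_79600), closest to a diacylglycerol pyrophosphate phosphatase, with r = 0.925, GFA1 (ATCC64974_75500), closest to an enzyme of amino sugar synthesis for chitin, with r = 0.924, and ATCC64974_77540, which has no match, with r = 0.919. Those most like fadA were ATCC64974_104940, also without a match (r = 0.983), MP3 (ATCC64974_76760), closest to a steroid-binding protein (r = 0.969), and cprA (ATCC64974_100340), the reductase that passes electrons to cytochrome P450 enzymes (r = 0.963). These are the highest of 6886 r values over only 9 libraries. Whether they exceed what so many genes would give by chance was not tested. GFA1 ran from 4.15 to 44.8 CPM, whereas flbA ran from 16.9 to 31.2 CPM.

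The rest of the pathway was followed through 38 further genes chosen by annotation, of which 33 passed the filter. Between ΔaslA and MA234.1, 9 were called higher and 6 lower, a share near that of all genes (48.5% called, 23.5% higher and 24.9% lower). Their median log2 fold change was 0.13 beside 0.00 over all genes. The beta subunit gene GB-1 (ATCC64974_110200) stood at 107 ± 1.21 CPM in MA234.1 and 88.8 ± 20.6 CPM in ΔaslA (edgeR adjusted p = 0.306). The gamma subunit gene gng-1 (ATCC64974_19680) stood at 60.3 ± 4.33 and 54 ± 2.63 CPM (edgeR adjusted p = 0.451). Neither core beta nor core gamma subunit was called. The only called gene of the beta and gamma list was cpc-2 (ATCC64974_16240), whose product is a beta-like WD repeat protein of the ribosome-associated RACK1 type and not a partner in the heterotrimer by that name alone. It stood at 372, 337 and 368 CPM in MA234.1 and 2655, 2705 and 2746 CPM in ΔaslA (adjusted p = 0.00898 for an edgeR log2 change of 2.91 with an SE of 0.62), and at 2309, 365 and 2615 CPM in ΔaslB.

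The phosducin-like and Ric8 families hold helpers of G protein assembly. The 2 phosducin-like genes and the 1 Ric8 gene were called higher in ΔaslA, where edgeR called 23.5% of all genes higher. Whether they rose together was not tested. Pdcl (ATCC64974_110190), closest to a phosducin-like protein that assists the beta-gamma dimer, stood at 13.2, 15.6 and 15 CPM in MA234.1 and 59.6, 86.2 and 57.9 CPM in ΔaslA (adjusted p = 0.00689 for an edgeR log2 change of 2.22 with an SE of 0.24). All 3 libraries labelled ΔaslB were also above MA234.1 for this gene, at 31.2, 27.8 and 39.6 CPM, replicate 2 included (log2 fold change 1.17, edgeR adjusted p = 0.0682). PLP2 (ATCC64974_47500), a phosducin-like protein that in budding yeast acts with the chaperonin in actin and tubulin folding, rose from 66.4 ± 4.35 to 125 ± 17.7 CPM (edgeR adjusted p = 0.0160), and its call was lost without MA234.1 replicate 1 or 2 or ΔaslA replicate 2 (adjusted p up to 0.0590). The Ric8 family gene ATCC64974_79470, whose animal counterparts fold alpha subunits and exchange their nucleotide, rose from 12.7 ± 2.39 to 26.6 ± 3.26 CPM (edgeR adjusted p = 0.0126; without MA234.1 replicate 1, 0.0505).

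Of 11 receptor genes, 8 were measured, of which 3 were called lower and 1 higher in ΔaslA. Over all genes edgeR called 24.9% lower and 23.5% higher. The list was drawn by protein family and includes HlyIII and opsin genes, whose coupling to a G protein was not examined. The pheromone receptor gene STE3 (ATCC64974_73940) fell from 11.2 ± 1.62 to 2.77 ± 0.368 CPM (adjusted p = 0.00857 for an edgeR log2 change of -2.01 with an SE of 0.41), and was called in all 18 alternatives. The opsin gene nop-1 (ATCC64974_40150) fell from 32.4 ± 0.617 to 15.9 ± 1.75 CPM (edgeR adjusted p = 0.0150; without ΔaslA replicate 3, up to 0.0533). ATCC64974_110790, of the Git3 family of nutrient-sensing receptors, stood at 6.03 ± 0.386 and 1.64 ± 0.271 CPM, and its call (edgeR adjusted p = 0.0360) was lost in 8 of 18 alternatives, among them each that left out 1 of the 6 MA234.1 and ΔaslA libraries (adjusted p up to 0.104). ATCC64974_49860, of the HlyIII family that also holds the adiponectin-type receptors, rose from 20.1 ± 4.41 to 56 ± 4.35 CPM (edgeR adjusted p = 0.0162), a call lost without MA234.1 replicate 2 or 3 (adjusted p up to 0.0621).

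In the cAMP branch, 2 of the 6 measured genes were called in ΔaslA, where edgeR called 48.5% of all genes. The adenylate cyclase gene ATCC64974_88170, which makes cAMP, stood at 117 ± 5.09 CPM in MA234.1 and 97.1 ± 3.34 CPM in ΔaslA (edgeR adjusted p = 0.188; with only the 6 libraries compared, 0.0220). Its partner cap1 (ATCC64974_102040), a cyclase-associated protein that also binds actin, rose from 107 ± 2.71 to 216 ± 39.6 CPM (edgeR adjusted p = 0.0131). PDE1 (ATCC64974_13020), a phosphodiesterase that breaks down cAMP, fell from 57.2 ± 3.28 to 18.1 ± 6.35 CPM (adjusted p = 0.0137 for an edgeR log2 change of -1.66 with an SE of 0.42). The other phosphodiesterase gene, regA (ATCC64974_19660), stood at 65.3 ± 2.85 and 71.6 ± 0.722 CPM (adjusted p = 0.507 in edgeR). The kinase genes TPK2 (ATCC64974_62380, catalytic) and pkaR (ATCC64974_70150, regulatory) were not called, at 61 ± 3.11 and 59.4 ± 2.95 CPM, and at 83.5 ± 3.60 and 129 ± 8.60 CPM. The pkaR difference passed without the library labelled ΔaslB replicate 2 and with only the 6 libraries compared (edgeR adjusted p down to 0.000485). A second gene closest to pkaR, ATCC64974_64510, did not pass the filter.

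Of the 3 phospholipase C genes, plcA (ATCC64974_17490) fell from 95.3 ± 3.21 to 35.5 ± 1.44 CPM (edgeR adjusted p = 0.00850). Its closest match is a bacterial enzyme of Listeria monocytogenes, and it holds only the X domain of the family. Both plc1 genes hold the X and Y domains. The plc1 gene ATCC64974_101510 rose from 28.3 ± 5.56 to 61.6 ± 12.6 CPM (edgeR adjusted p = 0.0170; without MA234.1 replicate 1 or 2 or ΔaslA replicate 1, up to 0.0648). The plc1 gene ATCC64974_53670 was at 58.4 ± 4.37 and 39.9 ± 3.88 CPM and was not called (0.0605 in edgeR), though it was in 4 of 18 alternatives: DESeq2, only the 6 libraries compared, and without ΔaslB replicate 2 or 3 (adjusted p down to 0.00366). Of 10 measured genes of MAP kinase modules, 2 were called higher and 1 lower, where edgeR called 23.5% of all genes higher and 24.9% lower. MKK2 (ATCC64974_108860), a kinase kinase of the yeast cell integrity pathway, rose from 147 ± 9.14 to 269 ± 16.8 CPM (adjusted p = 0.00841 for an edgeR log2 change of 0.87 with an SE of 0.16). It stood at 162, 174 and 155 CPM in ΔaslB, and was the only pathway gene that differed between ΔaslA and ΔaslB without the library labelled ΔaslB replicate 2 (0.76, SE 0.13, edgeR adjusted p = 0.0452; with all libraries 0.152). The kinase gene MAPK (ATCC64974_98230) fell from 225 ± 5.52 to 126 ± 4.56 CPM (edgeR adjusted p = 0.00864), and spm1 (ATCC64974_15710), the kinase of the fission yeast cell integrity pathway, rose from 80 ± 4.85 to 158 ± 4.21 CPM (edgeR adjusted p = 0.0323), a call lost whichever of the 6 MA234.1 and ΔaslA libraries was left out (adjusted p up to 0.0985).

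**Figure D4:**
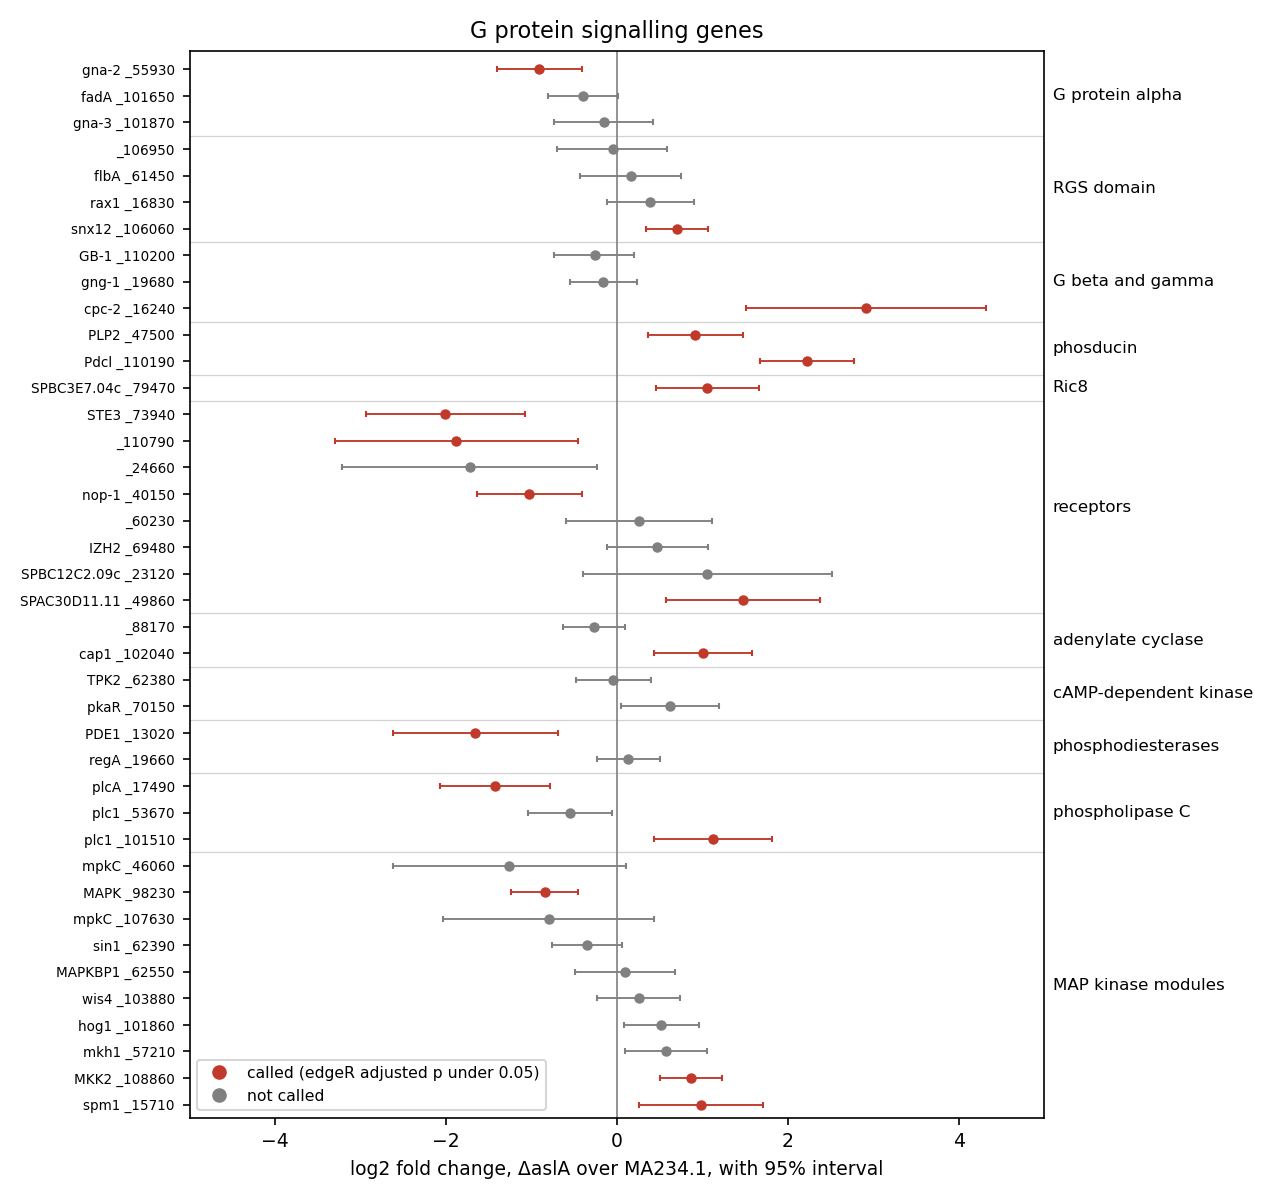
Log2 fold change of ΔaslA over MA234.1 (horizontal axis) with 95% intervals for the 7 G protein alpha and RGS genes and the 33 measured genes of the rest of the pathway, grouped by list; red points passed edgeR's test at an adjusted p under 0.05. cpc-2 (2.91) and Pdcl (2.22) are highest and STE3 (-2.01) lowest, while GB-1, gng-1, fadA, gna-3 and flbA have intervals that include 0.

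Upstream of flbA in Aspergillus nidulans, fluG starts the conidiation programme. The fluG gene (ATCC64974_2970) stood at 60.4 ± 4.85 CPM in MA234.1, 327 ± 15.8 CPM in ΔaslA (edgeR adjusted p = 0.00856), and 194, 66.8 and 347 CPM in ΔaslB. No symbol in the table is flbB, flbC, flbD or flbE. Against MA234.1 and without the library labelled ΔaslB replicate 2, 9 of the 33 further pathway genes were higher and 6 lower in ΔaslB, among them cpc-2 (log2 fold change 2.78), Pdcl (1.28), STE3 (-1.18) and MAPK (-0.56). In that fit edgeR called 26.4% of all genes higher and 26.2% lower, and with all libraries it called 0 of the 33.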

How the data were processed

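The authors deposited 2 tables of 11187 genes: one of raw counts (whole numbers, no normalization) in 9 libraries, and an annotated one with 1 FPKM value per gene and strain and, for every pairing of strains, the authors' log2 ratio of FPKM with its q-value. Stranded poly(A) libraries were read as pairs of 50 bp, per the labels; the tools named are featureCounts, Subread, Cuffdiff and HISAT2 2.2.1, per the submitters' processing notes, with roles, strand mode and genome build not given in the sources used here.

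Counts were tested with edgeR 4.0.16 in R 4.3.3: TMM scaling on total counts, the filter on low counts by group (9568 genes kept), robust estimation of spread, and 1 quasi-likelihood fit of all 9 libraries by strain. A gene was called where its p, adjusted over all genes by Benjamini-Hochberg, was under 0.05. A standard error is the log2 fold change divided by the square root of F, and 95% intervals use the fit's degrees of freedom. log2 CPM used a prior count of 2. Alternatives used other scaling and filters, DESeq2 1.42.0, limma 3.58.1 (voom), subsets of libraries and a replicate block. Library totals of 11321882 to 19110786 put 3 counts at 0.157 to 0.265 CPM. Replicate pairs differed by more than sampling noise (chi-square per degree of freedom from 2.36 to 643), and all were kept. Figures used matplotlib 3.10.9.

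The members, lists and tests were chosen with earlier results of these data known. All 7 members were named. Of the other lists all measured members were named where a list held 5 or fewer, and otherwise up to 4 called members with the largest change in ΔaslA; likeness took the 3 highest r. Outside this rule, the brlA matches, the second con-10 and rodA matches, ATCC64974_8540, hog1 and sin1 were named after their values were seen.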

Additional observations from a re-analysis of the deposited data

How the results depend on the processing

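The calls of gna-2 and snx12 in ΔaslA held in all 18 alternatives, 1 of which (spread without the robust option) was chosen after seeing the data. With only the 6 libraries compared, 4 of the 7 genes were called in ΔaslA (fadA and rax1 added). DESeq2 called 1738 genes in ΔaslB against MA234.1, of which 1 was a member (gna-2), and 524 in ΔaslA against ΔaslB; total counts alone called 644 in ΔaslB against MA234.1. Leaving out each library in turn gave 3008 to 5893 called genes in ΔaslA against MA234.1 (2 to 3 members), 0 to 5093 in ΔaslB against MA234.1 (0 to 3 members) and 0 to 1245 in ΔaslA against ΔaslB (0 members). The 3008 was without MA234.1 replicate 3; the highest of each range above 0 were without ΔaslB replicate 2, except 1245, without ΔaslB replicate 3. The cause was not tested.

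The replicate block left 4148 called genes in ΔaslA, with gna-2 and snx12 called, and changed no other member's call. Same-numbered libraries deviated together at r = -0.0582 to 0.0383, so no pairing by number was seen. With 3 libraries per strain these values cannot exclude a pairing.

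In 28 of 1094 values of single genes the sign turned; 0 of these were called, and the largest was 0.20 in size. For ATCC64974_106950 these were 0.01 in ΔaslA with no filter, 0.00 in ΔaslB with total counts alone, and -0.06 and -0.03 in ΔaslA against ΔaslB with total counts alone and the stricter filter. For flbA in ΔaslA against ΔaslB they were -0.01 with RLE size factors, DESeq2 and the 6 libraries, -0.11 with total counts alone and -0.07 with the stricter filter. gna-3 gave -0.02 there with total counts alone, and TPK2 0.02 in ΔaslA with no filter. Without 1 library each, the ranges of results whose sign turned were -0.15 to 0.04 (ATCC64974_106950) and -0.07 to 0.01 (TPK2) in ΔaslA; -0.49 to 0.01 (gna-3), -0.05 to 0.37 (flbA) and -0.45 to 0.15 (ATCC64974_106950) in ΔaslB; and in ΔaslA against ΔaslB -0.18 to 0.04 (fadA), -0.29 to 0.04 (gna-2), -0.16 to 0.34 (gna-3), -0.20 to 0.21 (flbA), -0.19 to 0.40 (ATCC64974_106950) and -0.19 to 0.10 (rax1). P-values measure the spread between these libraries, and the spread of ΔaslB enters every fit of all 9.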

Other observations

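Some genes of the pathway are neighbours in the files' assembly. The gna-3 gene and the stress kinase gene hog1 (ATCC64974_101860) lie next to each other on contig 17, on opposite strands and 5122 bases apart. hog1 stood at 324 ± 3.80 CPM in MA234.1, 465 ± 6.96 CPM in ΔaslA and 414, 305 and 304 CPM in ΔaslB, and was not called in ΔaslA (adjusted p = 0.0538 for an edgeR log2 change of 0.52 with an SE of 0.20, from 0.000492 to 0.150 over the alternatives), beside -0.15 for gna-3. The phosducin-like gene Pdcl and the beta subunit gene GB-1 are neighbours on the minus strand of the same contig, 2819 bases apart; in ΔaslA the first rose by 2.22 on the log2 scale and the second changed by -0.26 without passing the test. The genes TPK2 and sin1 are likewise neighbours, 2198 bases apart.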
